A study of Rattus norvegicus with 56 samples.

Results

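The data described here are the response of the rat cortical collecting duct (CCD) to ureteral obstruction, and how that response at 3 h differed from the response at 30 min. All 32 CCD libraries of the 56 samples were used. They make 16 replicates, 4 in each of 4 groups: sham and obstruction at 30 min, and sham and obstruction at 3 h. Of 32883 genes in the tables, 11572 were tested, namely those listed at 1 TPM or more (transcript abundance relative to the library total) in at least 4 of the 8 replicates of either time. For each gene, the change in obstruction against sham at 30 min was subtracted from the change at 3 h, on log2(TPM + 1). A positive difference means that the change was higher at 3 h.

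The rats were male Sprague-Dawley animals, and the labels name no genetic change in any group. In unilateral ureteral obstruction (UUO) the left ureter was exposed through the flank under anesthesia and tied off with silk near the renal pelvis. Sham rats had the same surgery without the ligature, so the controls are operated animals. CCDs and thick ascending limbs were microdissected, and cDNA made from their RNA was amplified by PCR before the libraries were built. Each number has 2 CCD libraries. They were averaged and counted as 1 replicate, and the labels do not say how many animals stand behind a number. The p-values therefore measure the spread between these samples. The same contrast in 16 libraries of the cortical thick ascending limb (cTAL), the segment that reabsorbs salt without water, was used for comparison.

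The CCD is the segment in which the final water content of urine is set. Its principal cells carry the vasopressin receptor Avpr2, which raises cAMP and moves the water channel Aqp2 into the apical membrane, while Aqp3 and Aqp4 let water out at the basolateral side and the sodium channel ENaC takes up sodium under aldosterone. Its intercalated cells move acid and base with the vacuolar proton pump. Obstruction of the ureter is known to lower Aqp2 in the collecting duct, and stretched or injured tubule cells are known to make chemokines, keratins and growth factors.

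Markers of the labelled segment were high in every CCD library, but 1 library held more RNA of thick ascending limb markers. Aqp2 lay between 890 and 12216 TPM in every CCD library, and the sum of 8 principal cell markers between 4061 and 20396 TPM. No marker of podocytes, neutrophils or lymphocytes passed the filter. Some libraries stood apart. In library 2 of UUO replicate 4 at 3 h the 6 thick ascending limb markers summed to 19196 TPM, above its 4061 TPM of principal cell markers. The thick ascending limb gene Umod was above 5000 TPM in 3 of the 3 h libraries (18235 TPM in library 2 of UUO replicate 4, 6941 in library 1 of sham replicate 1 and 7957 in library 1 of sham replicate 3). Sham replicate 1 at 30 min held 4830 TPM of 4 connecting tubule markers, against 263 to 541 TPM in the other sham replicates of that time, and without it 167 genes were called higher and 23 lower. In sham at 30 min 296 genes were higher in library 1 than in library 2 of all 4 numbers by more than 1 on the log2(TPM + 1) scale. There were 74 such genes in sham at 3 h, 2 in UUO at 30 min and 0 in UUO at 3 h. Of the 296, 9 are among the 188 genes called for the difference between the times. Of all genes tested, 1.37% were called higher for that difference and 0.259% lower. The genes named by rule among the 296 were Gdf15, Hsd11b2, Jun and Pim3. The 2 libraries of UUO replicate 2 at 30 min correlated with each other at r = 0.904 over the genes tested, against 0.944 to 0.979 for the other numbers. UUO libraries at 30 min listed fewer genes at 1 TPM or more (8744 to 11189) than the sham libraries of that time (11257 to 11916), with no overlap, whereas the ranges at 3 h overlapped (9943 to 10750 and 9813 to 10679). The mitochondrially encoded share of TPM had a median of 20% in UUO and 14.7% in sham at 30 min, and of 6.32% and 6.11% at 3 h. Rescaled without those genes, the calls were 138 higher and 39 lower. TPM keep no depth, so the number of reads behind a value is unknown.

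More genes were called in the CCD at 3 h than at 30 min. In the values as deposited the called differences between the times were mostly upward, a balance that quantile normalization evened out (120 higher and 121 lower). At 30 min 3 genes passed an adjusted p of 0.05 (0.0259% of those tested, with 1800 at an unadjusted p under 0.05). At 3 h 488 genes were higher in UUO (4.22%) and 797 were lower (6.89%). That balance depended on the scaling: 38.0% of the 3 h calls were higher as deposited and 61.6% after median-of-ratios rescaling (644 higher and 402 lower). It also rested on single replicates: without sham replicate 2 at 3 h, 143 were higher and 141 lower, and without UUO replicate 1 there were 1118 lower. The difference between the times itself was called for 188 genes: 158 changed more upward at 3 h (1.37%) and 30 more downward (0.259%), with 1920 at an unadjusted p under 0.05. Most 3 h calls were not among them: the difference was not called for 345 of the 488 higher and 769 of the 797 lower genes. Of the 797, 89.5% already lay below 0 at 30 min, beside 86.0% of all genes tested. The change had a median SE of 0.25 at 30 min and 0.20 at 3 h, so the counts at the 2 times rest on unlike precision. Library 1 of each number alone called 94 of the 188 and library 2 alone 23. Without the 3 libraries high in Umod the counts were 217 and 38, and 420 and 552 at 3 h alone. The called genes included Ccl20 and Cxcl1, chemokines that draw leukocytes, Socs3, which inhibits cytokine receptors, Tnfrsf12a, the receptor of the cytokine TWEAK, and the injury marker Lcn2. Aqp2, the gene in the study's title, was lower at 3 h but was not among them.

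All 158 genes were above sham at 3 h, with a median log2 change of 1.46, and 143 of them were also called at 3 h alone. Their median change at 30 min was -0.36, and 143 of 158 lay below 0 there. That is close to the background, because 86.0% of all genes tested lay below 0 at 30 min, with a median of -0.31 (-0.13 at 3 h). Thus a negative change at 30 min added to the difference of most members: in 16 of the 158 it made up more than a 50% share. That share was largest for Pim3 among the called genes named by rule. This kinase gene stood at 30.3, 59.1, 73.3 and 91.6 TPM in sham replicates 1 to 4 at 30 min and at 16.8, 16.2, 32.5 and 29.9 in UUO, then at 24.6, 23.6, 14.3 and 15.0 in sham and 24.7, 42.1, 36.6 and 29.4 in UUO at 3 h. The arms overlapped at 30 min, where 3 of 4 UUO replicates were below every sham replicate, and at 3 h every UUO replicate was above every sham replicate, though UUO replicate 1 and sham replicate 1 nearly met. Still, its change at 3 h alone was not called (0.76, adjusted p = 0.0655), and its difference was 2.1 (SE 0.45, adjusted p = 0.0351). The change at 30 min differed between the libraries of a number: it was -2.12 in the libraries numbered 1, where sham lay between 54.3 and 159 TPM and the arms were separate, and -0.57 in those numbered 2, where sham lay between 16.7 and 52.5 TPM and the arms overlapped. From the libraries numbered 1 alone the difference was 2.24 (adjusted p = 0.0269), and from those numbered 2 it was 1.96 (adjusted p = 0.149).

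The members just inside and just outside the threshold had an adjusted p of 0.04914 and 0.05002. Only 126 of the 158 and 29 of the 30 passed the filter at both times, so some members were tested because of their level at 3 h. Akap12, Ccl2, Myc, Angptl4, Bcl3 and Alas2 would not have been tested without UUO at 3 h, nor AABR07007730.1 without UUO at 30 min. In each that was the group in which the gene was high, so separate arms there are not support. The filter was not applied anew in the fits without a replicate, so these tested the same 11572 genes. Under other scalings the balance of directions moved: of the called genes 84.0% were higher as deposited, 78.1% after median-of-ratios rescaling (211 higher and 59 lower) and 49.8% after quantile normalization (120 and 121). The median difference of all genes was 0.19, 0.08 and -0.07 in those fits, and 0.07 when UUO replicate 2 at 30 min was taken from its library 1 alone (216 higher and 105 lower). The counts also depended on single replicates. The higher calls fell to 28, 31 and 70 without sham replicate 2, 3 or 4 at 30 min, to 60 without UUO replicate 1 at 30 min, to 51 and 56 without UUO replicate 2 or 4 at 3 h, and to 54, 53 and 36 without sham replicate 2, 3 or 4 at 3 h, and they rose to 238 without UUO replicate 3 at 3 h. Of the 49 called genes that the text names by rule, 18 were called in every fit that left out 1 replicate, and none changed direction in any alternative in which it was tested. The 18 include Akap12, Ccl2, Myc and Angptl4, for which kept calls are not support, because UUO at 3 h brought them into the test.

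**Figure D1:**
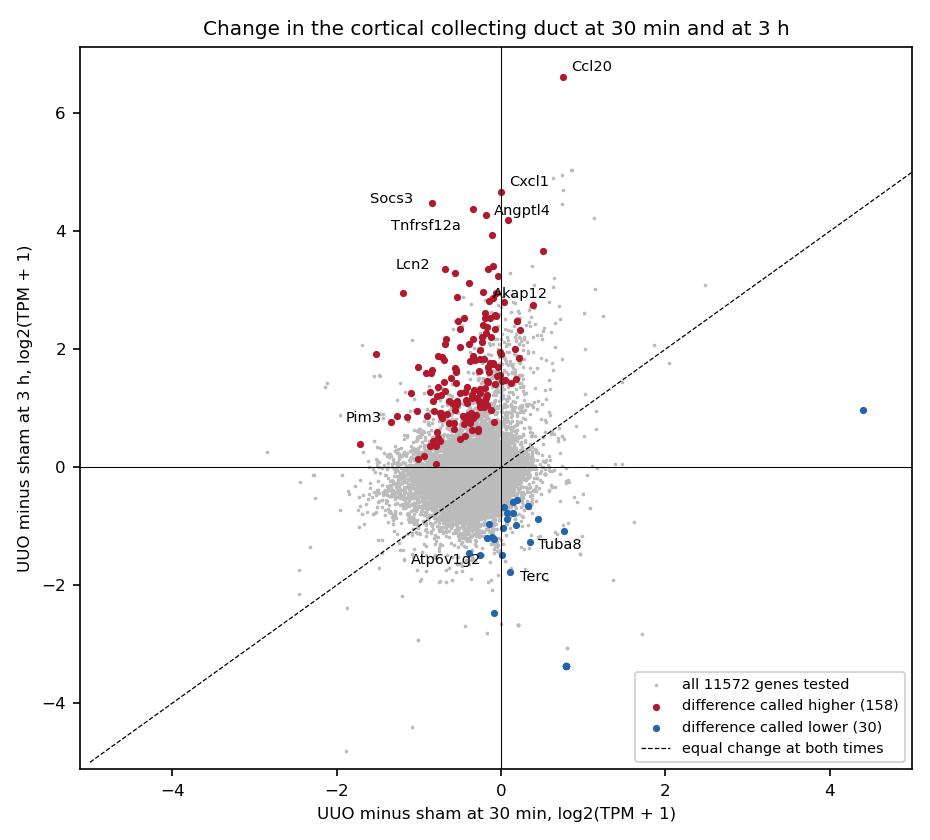
Change in UUO against sham at 30 min (horizontal axis) and at 3 h (vertical axis) for the 11572 genes tested, both on log2(TPM + 1), with the genes whose difference was called in red (158 higher) and blue (30 lower) and equal change at both times as a dashed line. The red genes lie above the dashed line with 30 min changes mostly a little below 0, and only 1 blue gene, AABR07007730.1, lies far to the right.

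The 3 genes called at 30 min are locus names without a described role, and are named here because they are so few. AABR07007730.1 stood at 19.9, 30.2, 23.6 and 23.6 TPM in UUO and 0.175, 0.304, 0 and 0.265 TPM in sham at 30 min. At 3 h it was listed at 0, 0.616, 0 and 11.7 TPM in UUO and 0.396, 0, 0 and 0 TPM in sham, so that only UUO replicate 4 was high. It was the single gene among the 30 with a call at 30 min, and its difference was -3.44 (SE 0.79, adjusted p = 0.0396). Without UUO at 30 min it would not have been tested. The other two were at 0 in every UUO replicate at 30 min: AABR07051395.1, with 3.44 to 5.44 TPM in sham, and RGD1560398, with 2.23 to 8.29 TPM in sham. Their differences between the times were not called (adjusted p = 0.827 and 0.662).

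A few chemokine genes were among those with the largest differences. Of 17 chemokine and cytokine genes tested, 3 were called higher (Ccl20, Cxcl1, Ccl2), 1 lower (Ccl28) and 13 were not called, and the median difference of the list was 1.71 beside 0.19 for all genes. The difference was above 0 for 67.05% of all genes tested, the background for every count above 0 given for a list. It was called higher for 1.37% and lower for 0.259%, the background for every count of calls in a list. The lists were chosen with earlier results of these data known. Ccl20, which attracts cells that carry the receptor Ccr6, had the largest difference of any called gene. At 30 min it stood at 19.7, 10.3, 5.58 and 1.43 TPM in sham and 9.68, 14.4, 7.35 and 20.7 TPM in UUO. At 3 h it stood at 0.466, 10.6, 1.27 and 1.37 TPM in sham and 63.1, 223, 691 and 862 TPM in UUO. The arms overlapped at 30 min, while at 3 h the lowest UUO replicate (number 1) was above the highest sham replicate (number 2). The difference was 5.87 (SE 1.14, adjusted p = 0.0228), and the call was lost in 3 of 16 fits that left out 1 replicate.

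Cxcl1, a neutrophil attractant, was at 0.724, 6.94, 1.78 and 0.634 TPM in sham and 1.55, 0.480, 0.807 and 8.08 TPM in UUO at 30 min. Its values at 3 h were 0.0863, 0.0909, 0.261 and 0.431 TPM in sham and 5.50, 37.0, 50.2 and 68.3 TPM in UUO, so every UUO replicate was above every sham replicate and replicate 1 was again the lowest of the UUO arm. The difference was 4.66 (SE 0.97, adjusted p = 0.0314), lost in 9 of 16 fits without a replicate (adjusted p up to 0.0723). Ccl2, the main attractant of monocytes, was lower in level. It was listed at 3.93, 0.456, 1.41 and 0.276 TPM in sham and 0.434, 0.958, 0.510 and 0.110 TPM in UUO at 30 min, and at 0.277, 0, 0.304 and 0 TPM in sham and 5.37, 16.2, 7.59 and 15.5 TPM in UUO at 3 h. The 30 min arms overlapped and the 3 h arms did not, with a difference of 3.86 (SE 0.54, adjusted p = 0.00719) that was called in every fit without a replicate. Ccl2 passed the filter only through UUO at 3 h, the group in which it was high, so the separate 3 h arms are not support. Ccl28, an epithelial chemokine, went the other way: its UUO values were 17.7, 24.6, 21.8 and 28 TPM beside 23.0, 10.5, 17.2 and 17.0 in sham at 30 min, and 17.5, 15.7, 15.4 and 14.4 beside 28.8, 29.6, 34.8 and 25.8 at 3 h. The 3 h arms were separate, with UUO below sham, and the difference was -1.32 (SE 0.29, adjusted p = 0.0354).

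Several genes of the NF-kB pathway were called higher. NF-kB is held in the cytoplasm by inhibitors such as Nfkbia and, once freed, switches on chemokine and adhesion genes. Of 22 members tested, 5 were called higher and none lower (14 had an unadjusted p under 0.05), with a median difference of 1.14 and 21 of 22 above 0, beside 67.05% of all genes tested. The 5 were Icam1, an adhesion molecule for leukocytes, Relb, an NF-kB subunit, Birc3, an inhibitor of apoptosis, Bcl3, a nuclear partner of NF-kB, and Bcl10, an adaptor upstream of it. Icam1 stood at 4.46, 12.8, 11 and 6.47 TPM in sham and 7.4, 1.62, 4.36 and 12.1 TPM in UUO at 30 min, and at 3.70, 7.30, 4.56 and 3.34 and 19.6, 43.5, 36.1 and 81.0 TPM at 3 h. The arms overlapped at 30 min and were separate at 3 h, and the difference was 3.42 (SE 0.67, adjusted p = 0.024). Relb, Birc3, Bcl3 and Bcl10 had differences of 2.7, 2.63, 1.91 and 1.23 (adjusted p = 0.0354, 0.0354, 0.0416 and 0.015), and for each the 3 h arms did not overlap. Bcl10 fell outside the rule for named genes and was chosen after its values were seen. Bcl3 was low, at no more than 9.12 TPM in any replicate, and passed the filter only through UUO at 3 h. Nfkbia was higher at 3 h (1.23, adjusted p = 0.0176) and its difference of 1.29 (SE 0.42, adjusted p = 0.137) was not called, with a 95% interval of 0.41 to 2.18.

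Promoters of 3 of these genes are shown because a kB-like motif lies in each. The sequences are from RefSeq on build GRCr8, run from 250 bases before to 50 bases after the annotated start in the direction of the gene, and the capitals mark GGNNTTTCC on either strand. Cxcl1 lies at chr14:17479272-17479571 (minus strand), Ccl20 at chr9:91836909-91837208 (plus strand) and Icam1 at chr8:27829595-27829894 (plus strand).
Cxcl1: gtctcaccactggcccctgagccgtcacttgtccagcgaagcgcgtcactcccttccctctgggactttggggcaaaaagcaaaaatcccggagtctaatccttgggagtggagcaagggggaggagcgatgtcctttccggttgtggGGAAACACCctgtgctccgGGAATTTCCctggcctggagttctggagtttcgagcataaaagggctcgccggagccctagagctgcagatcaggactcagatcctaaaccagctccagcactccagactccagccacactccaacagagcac
Ccl20: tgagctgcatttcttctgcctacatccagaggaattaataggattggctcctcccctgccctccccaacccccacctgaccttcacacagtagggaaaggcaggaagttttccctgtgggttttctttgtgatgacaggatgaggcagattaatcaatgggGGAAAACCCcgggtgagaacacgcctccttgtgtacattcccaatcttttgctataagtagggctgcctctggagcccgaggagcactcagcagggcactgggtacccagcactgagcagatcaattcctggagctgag
Icam1: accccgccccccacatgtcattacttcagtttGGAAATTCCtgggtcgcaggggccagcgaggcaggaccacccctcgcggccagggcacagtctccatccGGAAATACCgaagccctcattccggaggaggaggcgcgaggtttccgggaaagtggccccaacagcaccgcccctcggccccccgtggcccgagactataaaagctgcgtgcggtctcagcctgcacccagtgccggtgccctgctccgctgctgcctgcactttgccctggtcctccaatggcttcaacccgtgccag
The motif was found in 2 places in the Cxcl1 window, in 1 in the Ccl20 window and in 2 in the Icam1 window. It occurs in 6.05% of the 33469 promoters of the table. Among the genes called higher, 110 of 158 had exactly 1 promoter in the table, and 11 of these held it (10%). The share of all promoters was not limited to genes with exactly 1 promoter. Of the 8 called higher in the NF-kB and chemokine lists 5 matched, and 4 held it (Cxcl1, Ccl20, Icam1 and Bcl3). The NF-kB list was made of its subunits, inhibitors and targets, so the 4 are no separate result. The AP-1 motif TGANTCA was in 12 of the 110 (10.9%) and in 7.33% of all promoters. These are matches of letters in a 300 base window, and binding was not measured.

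Socs3 and Tnfrsf12a, a feedback inhibitor and a receptor of cytokine signalling, had the largest differences after Ccl20. Of 17 genes of cytokine receptors and STAT3 signalling, Socs3, Tnfrsf12a and Pim3 were called higher and none lower, with a median difference of 0.81. Tnfrsf12a stood at 36.0, 55.9, 105 and 49.0 TPM in sham and 34.4, 32.4, 48.7 and 72.4 TPM in UUO at 30 min. It stood at 43.4, 42.8, 39.4 and 33.2 TPM in sham and 339.7, 1039.8, 1242 and 1123 TPM in UUO at 3 h, a 20.7-fold change on the log2(TPM + 1) scale. The 30 min arms overlapped, all 4 UUO replicates at 3 h were far above sham, and replicate 1 was the lowest of them. The difference was 4.72 (SE 0.54, adjusted p = 9.22e-04) and was called in every alternative. Socs3, which STAT3 switches on and which then inhibits the receptor, was at 1.12, 2.95, 4.03 and 13.7 TPM in sham and 1.62, 0, 1.45 and 8.43 TPM in UUO at 30 min. At 3 h its values were 1.77, 0.771, 1.23 and 5.42 TPM in sham and 26.0, 71.6, 87.8 and 99.8 TPM in UUO, with no overlap. The difference was 5.32 (SE 0.94, adjusted p = 0.015), with a 95% interval of 3.34 to 7.31.

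A pair of EGF receptor family ligands and an inhibitor of that receptor were called higher. Of 9 EGF family ligands and receptors, Hbegf and Nrg1 were called higher and 7 were not called, and the list's median of 0.29 was near that of all genes. Hbegf, a ligand of the EGF receptor, stood at 5.07, 6.28, 13.5 and 7.82 TPM in sham and 6.59, 3.49, 8.28 and 10.8 TPM in UUO at 30 min, and at 6.93, 6.50, 6.11 and 5.84 and 15.3, 84.5, 82.8 and 59.7 TPM at 3 h. The 30 min arms overlapped and the 3 h arms did not, with UUO replicate 1 the lowest. Its difference of 2.96 (SE 0.63, adjusted p = 0.0342) was lost in 9 of 16 fits without a replicate. Nrg1, a ligand of the ErbB receptors, had a difference of 1.74 (SE 0.41, adjusted p = 0.0438). Errfi1, which binds and inhibits the EGF receptor, was the 1 gene called of 13 MAP kinase feedback inhibitors: 13.9, 9.62, 4.98 and 7.27 TPM in sham and 49.5, 43.3, 23.7 and 56.9 TPM in UUO at 3 h, after 18.3, 26.5, 28.9 and 28.4 and 9.59, 12.9, 22.4 and 19.9 TPM at 30 min. Its UUO replicates lay above sham at 3 h and overlapped the lower part of sham at 30 min, and the difference was 2.84 (SE 0.46, adjusted p = 0.0139).

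Early response transcription factors were in large part not called. None of the 8 AP-1 factors passed (2 had an unadjusted p under 0.05), although their median difference was 1.32 and 7 of 8 were above 0, and of 17 other immediate early genes all were above 0 (median 1.07) and Myc alone was called. Myc, a driver of growth and ribosome synthesis, stood at 0.266, 0.520, 0.597 and 0.399 TPM in sham and 0.312, 0.140, 0.619 and 0.349 TPM in UUO at 30 min, and at 1.15, 1.6, 0.886 and 0.621 and 9.62, 11.1, 13 and 26.5 TPM at 3 h. Every UUO replicate at 3 h was above sham while the 30 min arms overlapped, and the difference was 2.97 (SE 0.36, adjusted p = 0.00114). Without UUO at 3 h Myc would not have passed the filter. Fos, a subunit of AP-1, was already high in the operated controls of the early time: 222, 1182, 1336 and 1091 TPM in sham and 1504, 144, 821 and 734 TPM in UUO at 30 min, then 168, 310.5, 166 and 714 and 262, 518, 554 and 375 TPM at 3 h. The arms overlapped at both times and the difference of 0.93 (SE 0.95, adjusted p = 0.663) had an interval of -1.08 to 2.94. Egr1, Jun and Atf3, also immediate early factors, had overlapping arms at both times and differences of 1.07, 1.07 and 2.29 that were not called (adjusted p = 0.504, 0.475 and 0.376). Gdf15, a stress cytokine, showed a large difference without a call: it was at 30.7, 164, 333 and 147 TPM in sham and 7.61, 7.99, 26.0 and 45.8 TPM in UUO at 30 min and at 4.75, 2.81, 3.57 and 6.46 and 1.07, 6.70, 17.2 and 4.23 TPM at 3 h. Its arms overlapped at both times, and the difference of 3.10 (SE 1.02, adjusted p = 0.144) was mostly the change at 30 min (-2.84, adjusted p = 0.254), which was -4.45 in the libraries numbered 1 and -1.24 in those numbered 2.

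**Figure D2:**
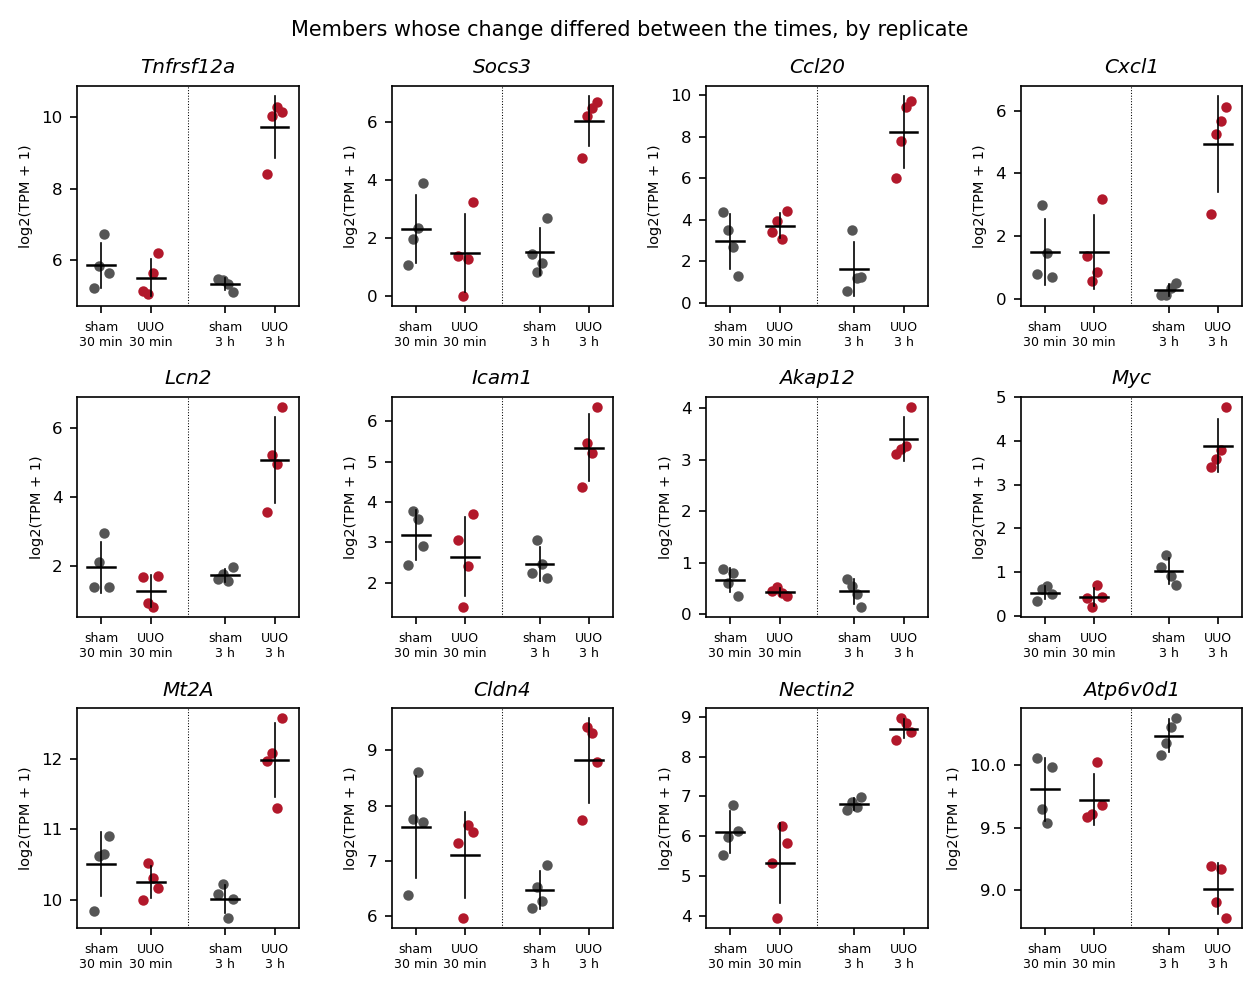
Level of 12 called members in each CCD replicate on log2(TPM + 1): sham in grey, UUO in red, 30 min left of the dotted line and 3 h right of it, with the mean as a bar and the SD as a line over 4 replicates. The times come from separate tables, so arms are to be compared only within a side of the dotted line. UUO stands apart from sham on the right side of every panel, and below it for Atp6v0d1.

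Markers of tubular injury had the most calls of the lists by number, though 5 of 18 NRF2 targets and metallothioneins were a larger share. Of the 25 injury markers tested, 6 were called higher (beside 1.37% of all genes tested) and none lower. The median difference was 1.43, and 24 were above 0 (67.05% of all genes tested). The 6 included Lcn2, which binds iron carriers of bacteria, the keratins Krt8, Krt18 and Krt19 of the epithelial skeleton, and Plaur, the urokinase receptor. Lcn2 stood at 1.63, 3.38, 6.74 and 1.64 TPM in sham and 2.21, 0.906, 0.778 and 2.28 TPM in UUO at 30 min, and at 2.08, 2.41, 2.00 and 2.93 and 10.8, 36.0, 30.4 and 96.9 TPM at 3 h. The arms overlapped at 30 min, the 3 h arms were separate with replicate 4 the highest, and the difference of 4.03 (SE 0.69, adjusted p = 0.015) was called in every alternative. Neutrophils also make Lcn2, and the sum of 5 neutrophil markers, none of which passed the filter, was between 1.57 and 17.1 TPM in UUO and between 0 and 0.407 TPM in sham at 3 h, with no overlap and replicate 4 the highest. At 30 min it lay between 0.0396 and 3.67 TPM in UUO and between 0.0916 and 16.8 TPM in sham. The part of these markers in the Lcn2 difference was not tested.

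Krt8 and Krt18, partners in the filaments of simple epithelia, were abundant in sham at both times. They fell outside the rule for named genes and were chosen after their values were seen. Krt8 was at 332, 392, 304 and 394 TPM in sham and 863, 1185, 1715 and 1315 TPM in UUO at 3 h, after 246, 393, 474 and 394 and 249, 155, 444 and 375 TPM at 30 min. Its difference was 2.17 (SE 0.40, adjusted p = 0.0204) and that of Krt18 1.87 (SE 0.42, adjusted p = 0.0354). Both had separate arms at 3 h only. Krt19 was scarce at 30 min, with 1.82, 2.30, 0.605 and 1.59 TPM in sham and 0.972, 0.406, 2.81 and 1.34 TPM in UUO. At 3 h its arms were separate, with 8.21, 5.73, 12.3 and 2.95 TPM in sham and 40.0, 139, 67.2 and 93.6 TPM in UUO, and the difference was 3.53 (SE 0.59, adjusted p = 0.015). Plaur had a difference of 2.76 (SE 0.53, adjusted p = 0.0226). Havcr1, the injury marker of the proximal tubule, was not tested because no replicate reached 1 TPM (0.761 TPM at most).

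Junction and cytoskeleton genes gave a few calls each. Of 22 claudin and junction genes, Cldn4, Cldn6 and Nectin2 were called higher and none lower (median 0.59). Cldn4, a claudin of the collecting duct that limits the leak of ions between cells, stood at 82.4, 216, 388 and 207 TPM in sham and 158, 61.6, 200.2 and 182 TPM in UUO at 30 min and at 70.1, 91.4, 76.6 and 121 and 213, 685, 632 and 439 TPM at 3 h. The arms overlapped only at 30 min, and the difference of 2.84 (SE 0.64, adjusted p = 0.037) was lost in 12 of 16 fits without a replicate (adjusted p up to 0.0869). Nectin2, an adhesion molecule of cell contacts, had the narrower spread. It was at 99.5, 116, 107 and 127 TPM in sham and 338, 499, 456 and 389 TPM in UUO at 3 h, after 44.9, 62.4, 109 and 69.8 and 39.0, 14.4, 75.3 and 55.9 TPM at 30 min, where replicate 2 of UUO was the lowest. Library 1 of that replicate held 34.3 TPM and library 2 held 5.75 TPM. The change of Nectin2 at 30 min was -0.28 in the libraries numbered 1 and -1.26 in those numbered 2. The difference of Nectin2 was 2.66 (SE 0.52, adjusted p = 0.024), and that of Cldn6 was 1.66 (SE 0.38, adjusted p = 0.0399).

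Tubb6, a beta tubulin, was the only one of the 76 genes named by rule whose arms were separate at both times, in opposite directions. It stood at 4.69, 5.90, 6.57 and 8.15 TPM in sham and 3.88, 2.23, 2.59 and 3.5 TPM in UUO at 30 min, then at 6.81, 3.40, 4.85 and 2.58 and 14.4, 10.8, 15.2 and 19.2 TPM at 3 h. Its change of -0.85 at 30 min was not called (adjusted p = 0.254) and the difference was 2.45 (SE 0.36, adjusted p = 0.00905). Tuba8, an alpha tubulin, was called lower, with 16.4, 14.9, 11.6 and 12.2 TPM in sham and 6.49, 4.64, 5.73 and 3.75 TPM in UUO at 3 h and a difference of -1.62 (SE 0.29, adjusted p = 0.015). The other 10 tubulins tested were not called. Zyx, which marks stretched actin fibres and focal adhesions, was the 1 call of 24 actin cytoskeleton genes (1.69, SE 0.33, adjusted p = 0.0228), and Ccn2, a matrix protein and target of YAP, the 1 call of 15 YAP and Hippo genes (2.29, SE 0.43, adjusted p = 0.0204). Of 17 genes of the TGF-beta and BMP pathway, all above 0 (67.05% of all genes tested) with a median of 0.48 that was 0.15 under quantile normalization, only Tgif1, a repressor of that pathway, was called (1.63, SE 0.35, adjusted p = 0.0351).

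Some genes against oxidants and metals changed more upward at 3 h. Of 18 NRF2 targets and metallothioneins, 5 were called higher and none lower, with 16 above 0 (67.05% of all genes tested were) and a median of 0.87. Mt2A and Mt1, small proteins that bind zinc and copper, were among the most abundant genes called. Mt2A stood at 916, 1577, 1605 and 1916 TPM in sham and 1024, 1474, 1260.5 and 1152 TPM in UUO at 30 min. It stood at 1079, 1188, 850.3 and 1034 TPM in sham and 4014, 4371, 2531 and 6149 TPM in UUO at 3 h. The 3 h arms were separate and the 30 min arms overlapped, with a difference of 2.23 (SE 0.34, adjusted p = 0.0103) called in every alternative. Mt1 had nearly the same difference, 2.23 (SE 0.38, adjusted p = 0.015), with 1897, 2316, 1220.1 and 3323 TPM in UUO beside 651, 573, 461 and 550.4 TPM in sham at 3 h. Hmox1, which breaks down heme, Txnrd1, which reduces thioredoxin, and Gclm, a subunit of the enzyme that starts glutathione synthesis, had differences of 2.49, 2.13 and 2.11 (adjusted p = 0.0354, 0.0342 and 0.0253), of which Gclm was chosen after its values were seen. Bag3, a partner of heat shock proteins, was the 1 call among 20 heat shock genes (1.97, SE 0.42, adjusted p = 0.0349).

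The promoters of both metallothioneins are shown because each holds several matches to TGCNCNC. This pattern is looser than the core of the metal response element, TGCRCNC (R for A or G). Thus GAGAGCA in Mt1 and GAGGGCA in Mt2A match the pattern and not that core. Sequences are again from RefSeq on GRCr8 in the direction of the gene, with the pattern on either strand in capitals. Mt1 lies at chr19:10832926-10833225 and Mt2A at chr19:10838659-10838958, both on the minus strand.
Mt1: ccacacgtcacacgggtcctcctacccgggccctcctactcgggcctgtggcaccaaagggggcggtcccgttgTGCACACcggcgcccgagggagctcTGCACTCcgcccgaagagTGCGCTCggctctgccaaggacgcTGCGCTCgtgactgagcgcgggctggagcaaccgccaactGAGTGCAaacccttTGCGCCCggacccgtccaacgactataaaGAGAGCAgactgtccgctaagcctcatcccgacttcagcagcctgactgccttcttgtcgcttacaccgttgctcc
Mt2A: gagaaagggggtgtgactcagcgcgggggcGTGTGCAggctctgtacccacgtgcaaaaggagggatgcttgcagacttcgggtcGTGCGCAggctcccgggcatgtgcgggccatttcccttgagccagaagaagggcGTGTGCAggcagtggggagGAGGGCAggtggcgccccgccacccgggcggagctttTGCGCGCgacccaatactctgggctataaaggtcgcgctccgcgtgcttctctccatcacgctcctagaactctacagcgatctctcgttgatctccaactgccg
The Mt1 window held 7 matches to the pattern and the Mt2A window 5, beside a mean of 0.777 for all promoters. The pattern is short and was found in 49.6% of all promoters and in 65 of the 110 matched genes called higher (59.1%). The antioxidant response core TGACNNNGC was in the 3 of the 5 called NRF2 and metallothionein genes that had exactly 1 promoter in the table (Gclm, Mt1 and Mt2A), in 17.3% of the genes called higher and in 12.1% of all promoters. That list was made of NRF2 targets and metallothioneins, so the 3 are no separate result. Occupancy of these letters was not measured.

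Part of the water and salt transport genes of the principal cell were lower in UUO at 3 h without a called difference between the times. Of 18 genes of transport and vasopressin signalling, 17 were not called, 9 were above 0 and 9 below, and the median difference was -0.0043 beside 0.19 for all genes. The call was Akap12, an anchor of protein kinase A, and it was higher. At 3 h alone 6 of the 18 were called lower and 1 higher, beside 6.89% and 4.22% of all genes tested. Those shares depended on the scaling and on single replicates, as given above. The list's median change was -0.54 at 30 min and -0.53 at 3 h, beside -0.31 and -0.13 for all genes. The 8 principal cell markers, all members of that list too, had differences below 0 (median -0.39). None was called, 1 had an unadjusted p under 0.05, and 5 of the 8 were called lower at 3 h, beside 6.89% of all genes tested. Aqp2 stood at 3476, 5552, 5195 and 5298 TPM in sham and 1514, 2951, 4459 and 2996 TPM in UUO at 30 min. At 3 h it stood at 9902, 11283, 9824 and 9679 TPM in sham and 4928, 4318, 5771 and 2764 TPM in UUO. UUO was below sham without overlap at 3 h, and at 30 min 3 of 4 UUO replicates were below every sham replicate. The change was -0.79 at 30 min (adjusted p = 0.292) and -1.24 at 3 h (adjusted p = 0.012), and the difference of -0.45 (SE 0.38, adjusted p = 0.578) had a 95% interval of -1.25 to 0.35.

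Avpr2 had the difference farthest from 0 among the principal cell markers. It stood at 436, 567, 448 and 515 TPM in sham and 449, 156, 478 and 454 TPM in UUO at 30 min, and at 650.1, 794, 754 and 859 and 329, 217, 289.6 and 120.0 TPM at 3 h. Replicate 2 alone was low in UUO at 30 min, whereas all 4 UUO replicates were below sham at 3 h. Library 1 of that low replicate held 368 TPM and library 2 held 65.6 TPM. The change of Avpr2 at 30 min was -0.12 in the libraries numbered 1 and -0.83 in those numbered 2. The difference was -1.29 (SE 0.46, adjusted p = 0.177), with an interval of -2.26 to -0.31, and it was called in 4 of 16 alternatives and, in addition, without UUO replicate 2 at 30 min (-1.68, adjusted p = 0.0271). Kcnj1, the potassium channel ROMK, was at -1.11 (adjusted p = 0.3), and Aqp3 and the ENaC subunit Scnn1b at -0.33 and -0.19 (adjusted p = 0.703 and 0.844). Hsd11b2, which keeps cortisol-like hormones from the aldosterone receptor, had nearly equal changes at both times: -0.91 at 30 min with separate arms, -0.98 at 3 h with overlapping arms, and a difference of -0.07 (SE 0.37, adjusted p = 0.947). Neither change was called (adjusted p = 0.219 and 0.0782). The change at 30 min differed between the libraries of a number. In the libraries numbered 1 it was -1.85, with sham between 1092 and 1668 TPM and UUO between 318 and 401 TPM. In those numbered 2 it was 0.034, with sham between 311 and 529 TPM and UUO between 326 and 508 TPM. In such samples fewer cells of a type and less of its RNA per cell cannot be told apart.

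**Figure D3:**
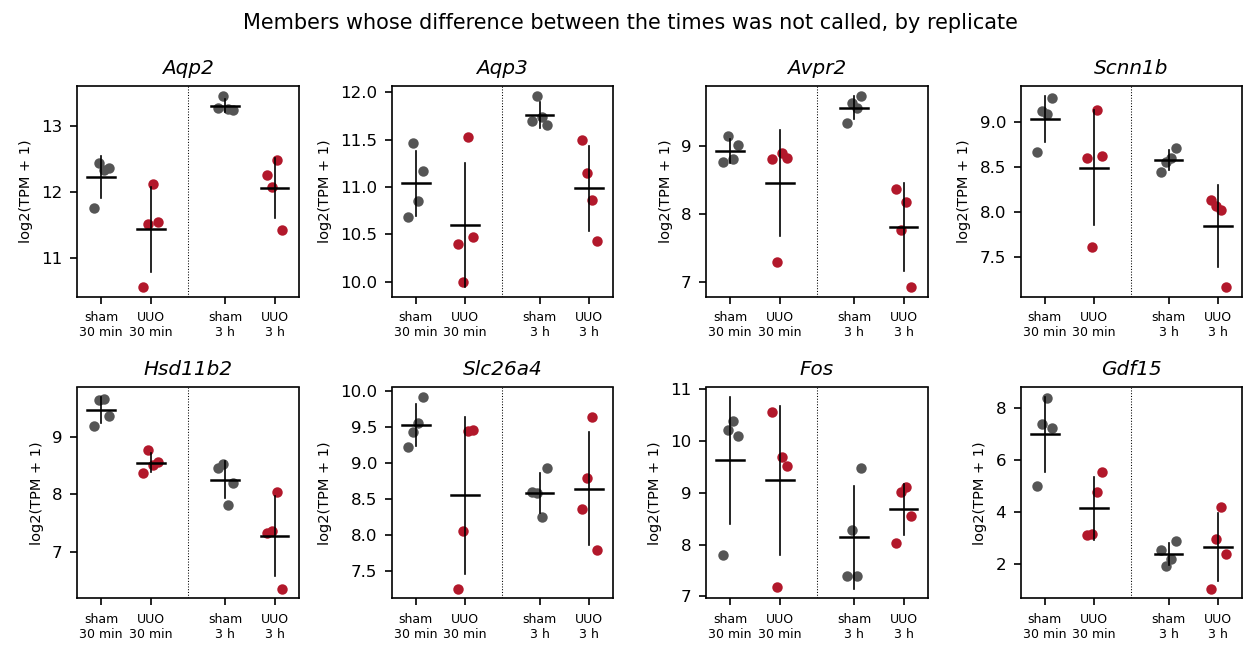
Level of 8 members without a called difference in each CCD replicate on log2(TPM + 1), drawn as sham in grey and UUO in red with the mean and SD over 4 replicates. Arms are to be compared within a time only. Aqp2, Aqp3, Avpr2 and Scnn1b are lower in UUO on the 3 h side without overlap, and Fos and Gdf15 spread widely.

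Akap12 passed the filter only through UUO at 3 h, the group in which it was high. It was listed at 0.830, 0.516, 0.735 and 0.275 TPM in sham and 0.362, 0.435, 0.332 and 0.271 TPM in UUO at 30 min, and at 0.606, 0.465, 0.318 and 0.0947 TPM in sham and 7.68, 8.29, 8.58 and 15.3 TPM in UUO at 3 h. Every value was under 1 TPM except in UUO at 3 h, where the lowest replicate was at 7.68 TPM. The difference was 3.19 (SE 0.28, adjusted p = 5.87e-05), called in all 16 fits without a replicate and in the 14 other alternatives in which it was tested. The filters at both times and at 10 TPM removed it. None of the 20 factors tied to Aqp2 expression was called (4 had an unadjusted p under 0.05). Elf3, a transcription factor of epithelia, came nearest (1.80, SE 0.46, adjusted p = 0.0605), with separate arms at 3 h and overlapping arms at 30 min. The list's median of 0.33 became -0.0028 under quantile normalization.

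Intercalated cell genes were not called, while 2 proton pump subunits were lower. None of 22 transport genes of the intercalated cell list passed (median -0.04, with 0 at an unadjusted p under 0.05), including Slc26a4, the chloride and bicarbonate exchanger pendrin (1.04, SE 0.61, adjusted p = 0.413), and Slc4a1, the anion exchanger of type A cells (-0.21, SE 0.50, adjusted p = 0.877). The lower calls outside the list included Atp6v0d1 and Atp6v1g2, subunits of the vacuolar proton pump that lysosomes of every cell also use. Atp6v0d1 stood at 1066, 803, 743 and 1009 TPM in sham and 766, 779, 1039 and 819 TPM in UUO at 30 min, and at 1079.9, 1154, 1262 and 1327 and 584, 479, 577 and 438 TPM at 3 h. The arms overlapped at 30 min and at 3 h every UUO replicate was below sham, with a difference of -1.13 (SE 0.20, adjusted p = 0.015). Atp6v1g2 was far lower in level: 11, 8.43, 9.61 and 9.12 TPM in sham and 3.31, 2.51, 2.92 and 2.28 TPM in UUO at 3 h, after 4.08, 4.36, 5.18 and 5.74 and 4.74, 4.22, 6.36 and 4.26 TPM at 30 min. Its UUO values were below sham only at 3 h, and the difference was -1.50 (SE 0.25, adjusted p = 0.015). Both kept their call in all 16 fits without a replicate.

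The other genes whose change was lower at 3 h had mostly smaller differences. The 30 had a median difference of -1.28, 28 of them were called lower at 3 h, and 23 were above 0 at 30 min. Because the 30 min change is subtracted, the selection of these genes favours positive changes at 30 min, so the 23 are no separate result. The counts take each of 8 loci named U1, described below, as a gene. Fabp3, a carrier of fatty acids, stood at 1648, 1477, 1362 and 1325 TPM in sham and 2071, 1887, 1579 and 1803 TPM in UUO at 30 min, and at 2372, 2457, 2006 and 1640.1 and 1328, 1352, 1248 and 1391 TPM at 3 h. UUO was the higher arm with overlap at 30 min and the lower arm without overlap at 3 h, and the difference was -0.99 (SE 0.17, adjusted p = 0.015). Terc, the RNA of telomerase, had -1.89 (SE 0.43, adjusted p = 0.039), Nprl2, an inhibitor of mTORC1 signalling, -1.07 (SE 0.24, adjusted p = 0.037), Lsm10, which processes histone mRNA, -1.06 (SE 0.25, adjusted p = 0.0411), and Ppil3, a prolyl isomerase, -0.96 (SE 0.17, adjusted p = 0.015). Fbxo16, Magix and Tstd3 had differences of -1.23, -1.06 and -1.02. Of the 30, 8 were loci named U1, the spliceosomal RNA, with identical values. Reads cannot be placed among such copies, so they count as 1 uncertain reading, from 5.54, 40.0, 27.6 and 16.4 TPM in sham to 3.78, 1.42, 0 and 0 TPM in UUO at 3 h.

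Several large differences were in genes outside the lists. Angptl4, an inhibitor of lipoprotein lipase, was listed at 0.269, 0.175, 0.0724 and 0.105 TPM in sham and 8.65, 22.6, 8.51 and 112 TPM in UUO at 3 h, after no more than 0.754 TPM in any 30 min replicate. Its UUO arm at 3 h was separate from sham with replicate 4 the highest, and the difference was 4.46 (SE 0.76, adjusted p = 0.015). Angptl4 passed the filter only through that arm. Sfn, the 14-3-3 sigma protein of epithelia, went from 7.08, 1.36, 4.01 and 2.82 TPM in sham to 15.7, 69.9, 101 and 340.0 TPM in UUO at 3 h, with a difference of 4.11 (SE 0.95, adjusted p = 0.0399) that was lost in 13 of 16 fits without a replicate. Rnd1, a small GTPase that loosens actin fibres, had 4.04 (SE 0.82, adjusted p = 0.0281). Rgcc, a regulator of the cell cycle, had UUO below sham without overlap at 30 min and above it without overlap at 3 h. Rgcc, Odc1, the enzyme that starts polyamine synthesis, and Sat1, which acetylates polyamines, had differences of 3.45, 2.13 and 1.44. These last 3 were chosen after their values were seen.

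Some called genes are known best from other cells. Cyp4a3, which hydroxylates fatty acids, and Slc7a13, an amino acid transporter, are genes of the proximal tubule, as are Slc6a18, Slc23a3 and Aqp1, which were also called and were chosen after their values were seen. Cyp4a3 stood at 11, 11.6, 9.41 and 8.74 TPM in sham and 8.85, 5.15, 2.52 and 1.64 TPM in UUO at 30 min, and at 5.51, 3.15, 10.5 and 2.09 and 45.5, 32.7, 24.1 and 86.6 TPM at 3 h. The arms were separate at 3 h with UUO higher, and the difference was 4.15 (SE 0.64, adjusted p = 0.011). Slc7a13 had 3.51 (SE 0.84, adjusted p = 0.0447). The sum of 9 proximal tubule markers moved with them: it lay between 419 and 2473 TPM in UUO and between 129.5 and 617 TPM in sham at 3 h, and between 306 and 411 and between 82.9 and 619 TPM at 30 min. Of 7 such markers tested none was called (2 had an unadjusted p under 0.05), and their median difference was 1.43, with all 7 above 0. Cyp4a3 has near-identical copies among which reads could be split, so its value is uncertain. The part of the marker sums in the differences of Cyp4a3 and Slc7a13 was not tested.

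Red blood cell genes had the highest median difference of the marker lists, 4.19 over 3 genes. Alas2, the heme enzyme of red cells, was called (2.44, SE 0.52, adjusted p = 0.0351), and the haemoglobin genes Hbb and Hba-a2 were called at 3 h (4.96 and 5.04) with differences of 4.22 and 4.19 that were not (adjusted p = 0.203 and 0.189). Alas2 would not have been tested without UUO at 3 h, where it was high. Reads of haemoglobin genes could likewise be split among near copies. The sum of the 3 genes was between 981 and 5605 TPM in UUO and between 15.7 and 795 TPM in sham at 3 h, with no overlap, and between 52.3 and 1584 and between 55.7 and 510 TPM at 30 min. None of 7 macrophage markers was called (3 had an unadjusted p under 0.05), with all 7 above 0 and a median of 0.96. C1qb, a complement gene of macrophages, came nearest (1.73, SE 0.47, adjusted p = 0.079). Their sum lay between 287 and 772 TPM in UUO and between 187 and 462 TPM in sham at 3 h. Pf4 and Apoe, genes of platelets and macrophages chosen after their values were seen, were called (2.1, SE 0.49, adjusted p = 0.0416, and 2.15, SE 0.50, adjusted p = 0.0399). The sum of 7 smooth muscle and pericyte markers lay between 6.36 and 39.2 TPM in UUO and between 0.303 and 4.72 TPM in sham at 3 h, and between 5.06 and 7.08 and between 1.35 and 3.84 TPM at 30 min, with no overlap at either time. Tagln, an actin-binding protein of smooth muscle and the 1 of them that was tested, was called at 3 h (3.02, adjusted p = 0.0234) with a difference of 1.88 that was not (adjusted p = 0.221). The sum of 6 fibroblast markers was between 11.2 and 44.5 TPM in UUO and between 5.10 and 15.7 TPM in sham at 3 h, with overlap, and neither of the 2 tested was called. What these cells contributed to the chemokine and injury genes was not tested.

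**Figure D4:**
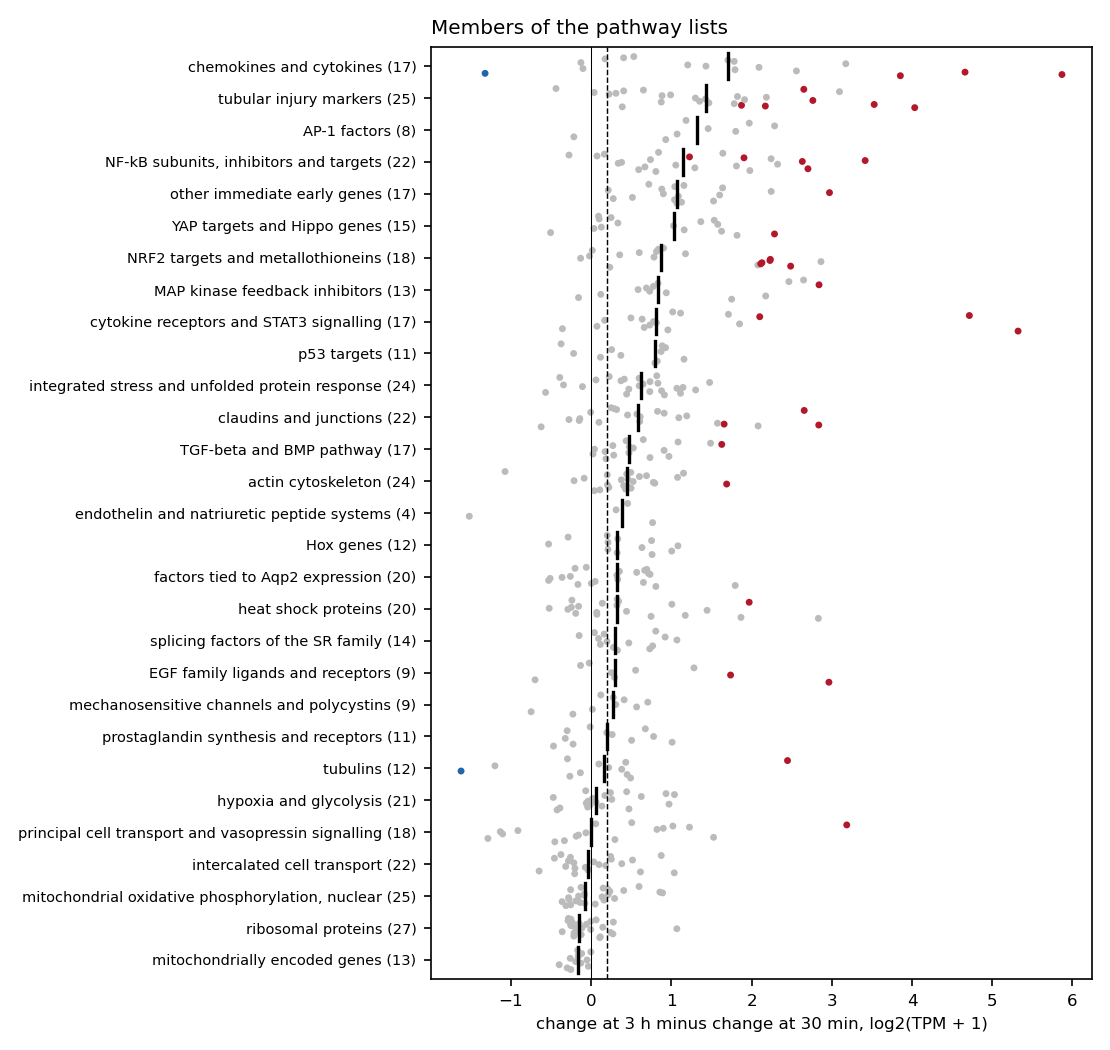
Difference between the times (change at 3 h minus change at 30 min, log2(TPM + 1)) for each tested member of 29 pathway lists, with the number tested in brackets, called genes in red (higher) or blue (lower), others in grey, the list median as a black bar and the median of all genes (0.19) as a dashed line. Chemokines (1.71), injury markers (1.43) and AP-1 factors (1.32) have the highest medians and mitochondrially encoded genes (-0.16) the lowest.

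The remaining lists had no call in either direction. None of 24 genes of the integrated stress and unfolded protein response (median 0.62), 21 of hypoxia and glycolysis (0.06), 11 of prostaglandin synthesis (0.19), 11 p53 targets (0.79), 4 of the endothelin and natriuretic systems (0.38), 9 mechanosensitive channels and polycystins (0.28), 25 nuclear genes of oxidative phosphorylation (-0.08), 13 mitochondrially encoded genes (-0.16), 27 ribosomal proteins (-0.15), 14 SR splicing factors (0.30) or 12 Hox genes (0.33) was called. At an unadjusted p under 0.05 these lists held 6, 2, 0, 4, 1, 1, 3, 0, 2, 4 and 1 genes in the same order. The nearest to a call among them were Chac1, which degrades glutathione under stress (1.3, SE 0.35, adjusted p = 0.0809), Tp53inp1 (1.16, SE 0.39, adjusted p = 0.151), Edn3, a vasoactive peptide (-1.52, SE 0.53, adjusted p = 0.164), and Srsf11 (0.92, SE 0.33, adjusted p = 0.171). Edn3 was called lower at 3 h alone (-1.89, adjusted p = 0.0136). Mafg, a partner of NRF2, missed the threshold in its own list (1.18, SE 0.31, adjusted p = 0.0707). The medians of the hypoxia, tubulin, prostaglandin and mechanosensitive lists changed sign under quantile normalization (-0.07, -0.04, -0.16 and -0.08), and that of the hypoxia list also under median-of-ratios rescaling (-0.08). Quantile normalization moved the median of all genes from 0.19 to -0.07, and it lowered the medians of the cytokine receptor (0.48), EGF (0.10), YAP (0.66), claudin (0.23), heat shock (0.09), unfolded protein (0.41), p53 (0.40), endothelin (0.10), SR factor (0.11) and Hox (0.15) lists by more than 1.5 times.

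The same contrast was taken in the cTAL to see whether the difference between the times was larger in either segment. In the values as deposited the segments were not told apart for the 188 genes, whereas after median-of-ratios rescaling 1 of them, Nectin2, passed. As deposited, the test of the CCD difference minus the cTAL difference called 2 of 11572 genes (0.0173%), RT1-S3 and Saysd1, neither of them among the 188, with 1398 at an unadjusted p under 0.05. Of the 158, 137 were above 0 in the cTAL, with a median of 0.84, beside 47.1% of all genes, and 30 were called higher there as well (0.856% of all genes). Of the 30 lower genes, 29 were below 0 in the cTAL (median -1.02) and 8 were called lower (1.4% of all genes). The cTAL has 1 library per number and the CCD the mean of a pair, which limits the precision of the cTAL values. The segment test takes a CCD and a cTAL replicate of the same arm, time and number as 1 animal, which the labels do not state. Their deviations from the group means correlated at 0.058 to 0.565 over genes.

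Some genes had nearly the same difference in both segments. Tnfrsf12a stood at 32.9, 75.6, 59.6 and 38.9 TPM in sham and 769, 1079, 1245 and 932 TPM in UUO in the cTAL at 3 h, again without overlap, and its cTAL difference was 4.48 (adjusted p = 0.00158). The CCD difference minus that was 0.23 (SE 0.52, adjusted p = 0.889), with an interval of -0.87 to 1.33. Akap12 had 2.92 in the cTAL and Myc 3.19. Mt2A and Mt1 were larger in the cTAL (3.56 and 3.47), with segment differences of -1.32 (SE 0.51, adjusted p = 0.311) and -1.24 (SE 0.53, adjusted p = 0.367).

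Others were near 0 in the cTAL, though the segment test did not pass for them in the values as deposited. Krt19 stood at 94.3, 188, 117 and 225 TPM in sham and 188, 103, 81.2 and 146 TPM in UUO in the cTAL at 3 h, with a cTAL difference of -0.56 and a segment difference of 4.09 (SE 1.01, adjusted p = 0.12). Nectin2, at -0.23 in the cTAL, had 2.89 (SE 0.52, adjusted p = 0.0579); after median-of-ratios rescaling, which called 23 genes, it was 2.69 with an adjusted p of 0.0322, and it was the 1 of those 23 that was also among the 188. Relb and Ccl28 had segment differences of 2.30 (SE 0.47, adjusted p = 0.0738) and -1.70 (SE 0.44, adjusted p = 0.121), and Ccl2 of 3.25 (SE 1.12, adjusted p = 0.263). Ccl2, at 0.61 in the cTAL, was higher in UUO there at both times. Its cTAL means were 8.2 TPM in UUO and 1.4 in sham at 30 min, with overlap, and 14.8 and 1.29 at 3 h, without overlap. A small difference between the times is thus not a lack of response. In the values as deposited none of these 5 genes passed the adjusted threshold, and the 95% interval for Nectin2, not adjusted for the number of genes, was 1.77 to 4.01.

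**Figure D5:**
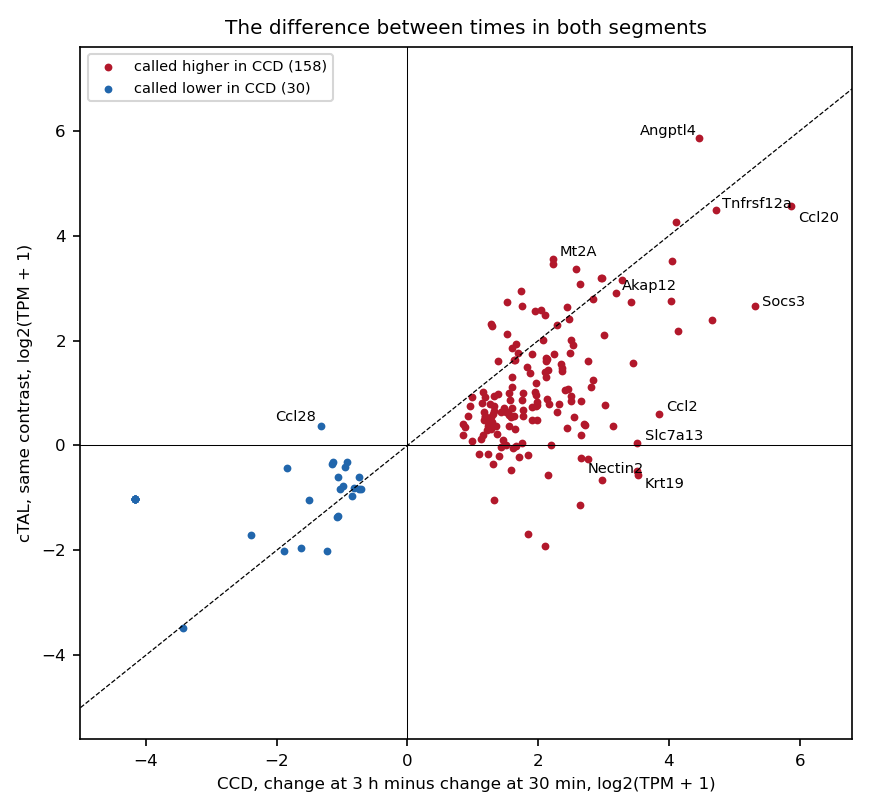
Difference between the times in the CCD (horizontal axis) and in the cTAL (vertical axis), both on log2(TPM + 1), for the 158 genes called higher (red) and 30 called lower (blue) in the CCD, with equality as a dashed line. Tnfrsf12a and Akap12 lie near the line, Krt19 and Nectin2 near 0 in the cTAL, and the CCD values were chosen for being far from 0.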

How the data were processed

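The authors deposited 1 table of TPM for each time. The submitters' processing notes name STAR 2.7.3, RSEM 1.3.3 and the genome build Rnor_6.0, without their roles. TPM are scaled to a fixed total per library, so a rise of abundant genes lowers all others, and depth is not kept. The tables were joined by Ensembl gene ID. Values were taken as log2(TPM + 1), which understates changes of low genes, and the 2 libraries of each number were averaged, so a replicate value in TPM is that mean turned back. Levels were never compared between the tables. Genes were kept at 1 TPM or more in at least 4 of 8 replicates at either time. The contrast was fitted on all 4 CCD groups with limma 3.58.1 in R 4.3.3 (mean-variance trend, Benjamini-Hochberg over the 11572 genes), and a gene was called at an adjusted p under 0.05. Each time alone was fitted on its own 8 replicates, and the segment test on the CCD value minus the cTAL value of the same number.

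Named genes were the 12 largest called differences in each direction (gene symbols only, mean of 5 TPM or more in 1 of the groups), up to 4 called members of each list or else the member with the smallest p, called marker genes and 26 chosen genes, in all 76 tested, of which 1 is not reported here. Same-numbered arms deviated together in all 4 pairs at 30 min (correlations of 0.109 to 0.225) but not at 3 h (-0.207 to 0.109), so the number was used as a block only as an alternative. The members and lists were chosen with earlier results of these data known. Promoters came from a RefSeq table on GRCr8, matched by symbol. The procedure was tested on simulated data. Alternatives covered the pseudocount, filter, scaling, libraries, variance model, block and each replicate left out. Figures were drawn with matplotlib in Python. Whole-kidney samples were not analysed here.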

Additional observations from a re-analysis of the deposited data

Results flagged for a closer look

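Within the 25 chosen genes that were tested, 7 of 100 groups of 4 replicates held 1 value far from the rest, and chance gives about 1 in 20. These were Akap12 in UUO replicate 4 at 3 h (15.3 TPM), Aqp2 in sham replicate 2 at 3 h (11283 TPM), Atf3 in sham replicate 4 at 3 h (25.5 TPM), Avpr2 in UUO replicate 2 at 30 min (156 TPM), Ccl20 in sham replicate 2 at 3 h (10.6 TPM), Cxcl1 in UUO replicate 4 at 30 min (8.08 TPM) and Scnn1b in UUO replicate 4 at 3 h (142 TPM). Avpr2 was low in the replicate whose 2 libraries matched least.

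The response differed between the times, by the test of the difference itself, for 158 genes upward and 30 downward. Among the chosen genes the log2 differences were 3.19 for Akap12, 3.86 for Ccl2, 5.87 for Ccl20, 2.84 for Cldn4, 4.66 for Cxcl1, 2.96 for Hbegf, 4.03 for Lcn2, 2.23 for Mt1, 2.97 for Myc, 5.32 for Socs3 and 4.72 for Tnfrsf12a.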

How the results depend on the processing

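Calls higher and lower in the difference between the times were 158 and 30. They became 73 and 11 with a pseudocount of 0.1, 26 and 9 with no filter beyond a value above 0 (23469 genes tested), 70 higher at 10 TPM, 59 lower after median-of-ratios rescaling, 121 lower after quantile normalization, 50 lower from library 1 alone, 15 and 9 from library 2 alone, 262 and 73 with 32 libraries and duplicateCorrelation, 432 and 172 with array weights, and 105 lower with UUO 30min number 2 from its library 1. Without 1 replicate they ran from 28 to 238 and from 6 to 57. The cause of these shifts was not tested. The replicate block gave 176 and 22, with 128 of the 188 called in both fits.

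At 30 min the calls were 1 higher and 2 lower, the same 3 genes with the replicate block; the lower count was 1 with a pseudocount of 0.1 and 1 with number 2 from its library 1, and 1 to 2 without a replicate. At 3 h (488 and 797) it was 402 lower after median-of-ratios rescaling, 271 and 218 with the replicate block (459 of the 1285 called in both fits), and 143 to 566 higher and 141 to 1118 lower without a replicate. The fits at 1 time without a replicate or a library and the changes by library number were added after seeing the data. The segment test rose from 2 to 23 genes after median-of-ratios rescaling.

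Of the values of single named genes under alternatives, 1956 kept direction and side of the threshold, 411 lost it, 24 gained it and 13 reversed, all in genes not called. Hsd11b2 reversed to 0.72 from library 1 and 0.22 without the 3 h libraries above 5000 TPM of Umod, and ran from -0.32 to 0.24 without 1 replicate. Scnn1b reversed to 0.0079 and Slc4a1 to 0.076 from library 2, and without 1 replicate they ran from -0.48 to 0.039 and from -0.70 to 0.052, and Aqp4 from -0.0073 to 0.57.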

Other observations

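Some of the 158 genes that belong to none of the lists are known as genes that interferons or inflammatory cytokines induce. They were chosen after their values were seen. Ifit3, an antiviral protein, stood at 4.20, 3.23, 11.5 and 4.86 TPM in sham and 5.53, 3.49, 5.39 and 5.70 TPM in UUO at 30 min, and at 1.90, 6, 6.04 and 1.53 and 12.0, 100.3, 63.4 and 54.1 TPM at 3 h. Its arms overlapped at 30 min only, with UUO replicate 1 the lowest of the 3 h arm, and the difference was 3.5 (SE 0.75, adjusted p = 0.0349). Oasl, of the oligoadenylate synthetase family, Ubd, a ubiquitin-like protein, and Ch25h, which makes 25-hydroxycholesterol, had differences of 2.63, 3.15 and 2.97 (adjusted p = 0.015, 0.0351 and 0.0167), each with separate arms at 3 h and overlapping arms at 30 min. In the cTAL the same contrast was -0.48 for Ifit3, -1.14 for Oasl, 0.37 for Ubd and -0.66 for Ch25h, and the test of the segments did not pass for any of them. The segment differences were 3.99 for Ifit3 (SE 0.84, adjusted p = 0.0745) and 3.78 for Oasl (SE 0.81, adjusted p = 0.0757). They were 2.77 for Ubd (SE 1.10, adjusted p = 0.327) and 3.63 for Ch25h (SE 0.77, adjusted p = 0.0745).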
